A study of Rattus norvegicus with 9 samples.

Results

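The 10 genes Atf4, Atf5, Ddit3, Atf3, Trib3, Chac1, Ddit4, Ppp1r15a, Gdf15 and Fgf21, which hold the transcription factors of the ATF4 and CHOP stress response, their target genes and 2 liver-derived stress hormones, were read in 9 rat liver arrays. A gene was taken where a transcript cluster of the array (the set of probes that reads 1 transcript) carried its symbol alone. Each of the 10 genes lay on 1 such cluster, of 22093 genes and 68842 clusters in all. The study named Ddit3, Fgf21, Gdf15 and Chac1 from these same pools, so their values here are not independent evidence of their direction.

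When proteins misfold in the endoplasmic reticulum, when amino acids run short or when haem is lacking, a family of kinases phosphorylates the translation factor eIF2. Most translation then slows, while the transcripts of Atf4, Atf5 and Ddit3 are translated better, and ATF4 turns on genes of amino acid supply together with Ddit3, which encodes CHOP. In liver the same response feeds the hormones FGF21 and GDF15, and GADD34, the product of Ppp1r15a, closes the loop by directing a phosphatase to eIF2. The arrays measure transcripts, so control of translation is outside their reach.

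All rats were male Wistar rats, obtained young. The type 2 diabetes (T2D) of this model was brought about by a high-fat diet followed by a low dose of streptozotocin, a toxin of the insulin-producing beta cell, and so combines overfeeding with a chemical loss of beta cells. T2D treated rats received the lupin seed protein gamma conglutin (Cγ, 28 mg/kg) and the lupin alkaloid lupanine (20 mg/kg) by mouth daily for 7 days (pools 1, 2 and 3). T2D control rats had the same diet and streptozotocin and the saline vehicle alone (pools 4, 5 and 6), and healthy control rats were not made diabetic and received the vehicle (pools 7, 8 and 9). Each pool mixed liver RNA of 3 rats and was read on 1 array, so each group had 3 pools. By their labels the pools are biological replicates, whereas the methods also use the word technical. If the arrays of a group shared RNA, the p-values would measure only the spread of the array procedure.

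Values are log2 signals as the authors deposited them, so that a difference of 1 is a 2-fold change of signal. Array medians lay between 3.06 and 3.27, and between 76.6% and 76.9% of the clusters of an array were under 5, taken here as dim. All pools read above 5 for Atf4, Atf5, Ddit3, Atf3 and Trib3, while Chac1, Ppp1r15a and Gdf15 were dim in most pools, Gdf15 in every treated and every healthy pool. Liver identity was checked on 11 hepatocyte markers. The log2 of their summed signal was 14.72 to 14.78 in T2D treated pools, 14.72 to 14.91 in T2D control pools and 14.69 to 14.82 in healthy pools. Such a sum is weighted towards the brightest genes. The healthy livers were lysed in Buffer RLT and the diabetic ones in Trizol, and their 23 background probe sets read brighter (array means of 3.35 to 3.72, against 2.85 to 2.94 in treated and 2.80 to 2.85 in T2D control pools). Diabetes and lysis cannot be told apart in any comparison with healthy livers, and in whole liver RNA a smaller number of cells of a type and less RNA per cell cannot be told apart either.

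T2D control pool 4 was read apart from pools 5 and 6, because it stands apart from them in this set of genes. The choice rests on these same values, so the shares of all clusters beside them describe pool 4 and do not test it. In 9 of the 10 genes, all but Atf5, pool 4 was below both pools 5 and 6, as in 28.6% of all clusters. Pools 5 and 6 both exceeded every treated and every healthy pool in 9 genes, all but Trib3, against 5.53% of all clusters. Pool 4 did so in 5 genes (Atf5, Ddit3, Atf3, Gdf15 and Fgf21), against 8.60% of all clusters.

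**Figure D1:**
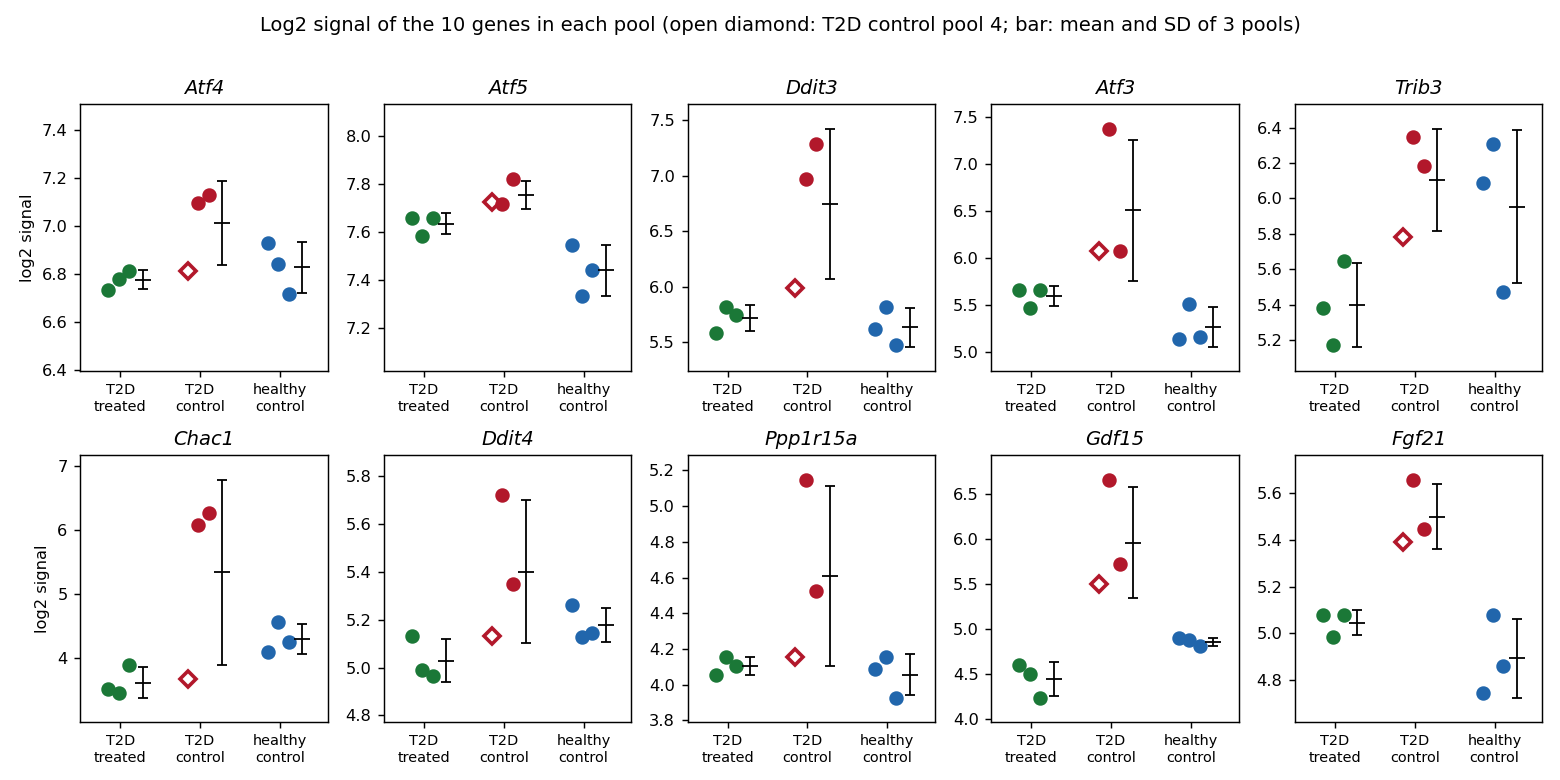
Log2 signal of each of the 10 genes (vertical axes, a range of its own for each gene) in the 3 pools of T2D treated, T2D control and healthy control livers, with the mean and SD of 3 pools beside the points and T2D control pool 4 as an open diamond. Chac1 in T2D control pools lay at 6.08 and 6.26 in pools 5 and 6, against 3.67 in pool 4, which sits among the treated pools.

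The promoter sequences are shown because the genes that share a response can share the DNA letters that ATF4 binds. ATF4 pairs with a C/EBP protein on a composite element whose core was searched as TGATGNAA on both strands (reverse complement TTNCATCA), and TTGCATCA was counted as a stricter form of it, since the reverse complement of TTGCATCA (TGATGCAA) is a case of TGATGNAA. RefSeq promoters of build GRCr8 were held for 9 of the 10 genes, with 2 entries for Gdf15. Atf3 is named only. In the 250 bases before the start, TGATGNAA occurred in 3 of the 9 genes (Chac1, Fgf21 and Trib3), against 3.4% of 33469 promoters. TTGCATCA occurred in Chac1 and Fgf21, against 0.693% of promoters. The cyclic AMP element TGACGTCA occurred in Ppp1r15a alone, against 1.59% of promoters. A match describes the letters and is not evidence of binding. Capitals mark the matches, each sequence runs from 5′ to 3′ and ends at the base before the start, and the match begins 167 bases before the start in Chac1, 143 in Fgf21, 21 in Trib3 and 66 in Ppp1r15a.
Chac1, chr3:126795881-126796130, plus strand: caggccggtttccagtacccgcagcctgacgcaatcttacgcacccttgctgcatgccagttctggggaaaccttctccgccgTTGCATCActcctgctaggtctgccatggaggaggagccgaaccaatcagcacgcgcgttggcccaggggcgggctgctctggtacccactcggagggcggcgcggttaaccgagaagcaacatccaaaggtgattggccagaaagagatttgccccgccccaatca
Fgf21, chr1:105221377-105221626, minus strand: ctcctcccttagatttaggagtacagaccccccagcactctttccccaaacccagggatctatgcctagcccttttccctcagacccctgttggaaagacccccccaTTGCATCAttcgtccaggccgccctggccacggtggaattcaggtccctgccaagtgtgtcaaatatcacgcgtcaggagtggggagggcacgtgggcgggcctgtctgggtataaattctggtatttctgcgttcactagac
Trib3, chr3:161275534-161275783, minus strand: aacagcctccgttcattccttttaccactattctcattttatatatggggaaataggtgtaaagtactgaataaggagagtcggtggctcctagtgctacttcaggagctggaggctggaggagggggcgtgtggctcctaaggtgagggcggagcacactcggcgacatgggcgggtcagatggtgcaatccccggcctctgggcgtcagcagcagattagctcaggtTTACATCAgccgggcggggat
Ppp1r15a, chr1:105139597-105139846, minus strand: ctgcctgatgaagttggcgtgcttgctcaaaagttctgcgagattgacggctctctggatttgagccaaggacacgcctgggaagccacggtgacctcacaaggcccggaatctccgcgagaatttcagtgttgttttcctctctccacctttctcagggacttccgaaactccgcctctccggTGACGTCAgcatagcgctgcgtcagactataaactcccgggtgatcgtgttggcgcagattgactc

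Among the transcription factors, Atf4 moved little. The Atf4 signal was 6.73, 6.78 and 6.81 in treated pools, against 6.81, 7.09 and 7.13 in T2D control pools 4, 5 and 6 and 6.93, 6.84 and 6.72 in healthy pools. Pools 5 and 6 were above every other pool, while pool 4 fell within the treated range. Atf5, a close relative of Atf4 under the same translational control, read between 7.59 and 7.66 in treated pools, between 7.72 and 7.82 in T2D control pools and between 7.33 and 7.55 in healthy pools. The 3 groups did not overlap for Atf5, and pool 4 (7.73) lay between pools 5 (7.72) and 6 (7.82). Treated pools lay entirely above healthy pools in 13.9% of all clusters.

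Ddit3 encodes CHOP, the factor most closely tied to cell death under lasting stress of the endoplasmic reticulum. Its signal was 5.59, 5.82 and 5.75 in treated pools, against 5.99, 6.97 and 7.28 in T2D control pools and 5.62, 5.82 and 5.47 in healthy pools. Treated and healthy pools overlapped, every T2D control pool was above both groups, and pool 4 exceeded the highest treated pool by 0.16 only. Atf3, a stress-induced repressor that is also an early gene of growth and injury signals, read 5.66, 5.47 and 5.66 in treated pools, against 6.07, 7.37 and 6.07 in T2D control pools and 5.13, 5.51 and 5.16 in healthy pools. Here pool 5 stood alone, and pools 4 and 6 were alike.

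Trib3 encodes a pseudokinase that binds ATF4 and damps its activity, and which also binds AKT. Trib3 read 5.38, 5.17 and 5.64 in treated pools, against 5.78, 6.35 and 6.18 in T2D control pools and 6.09, 6.31 and 5.47 in healthy pools. The treated pools were below all T2D control pools, but healthy pools spread over nearly the range of both. T2D control pool 5 was above every healthy pool for Trib3, by a small margin, while pool 6 was within the healthy range.

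Chac1 encodes a cyclotransferase that breaks down glutathione and is a target of ATF4 and CHOP. The Chac1 signal was 3.51, 3.45 and 3.89 in treated pools, against 3.67, 6.08 and 6.26 in T2D control pools and 4.10, 4.56 and 4.24 in healthy pools. Pools 5 and 6 were far above all others, and pool 4 fell among the treated pools. All treated pools were below all healthy pools, as in 33.9% of all clusters. Every Chac1 value outside pools 5 and 6 was dim.

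Ddit4 (REDD1), an inhibitor of the mTORC1 growth pathway, read 5.13, 4.99 and 4.96 in treated pools, against 5.13, 5.72 and 5.35 in T2D control pools and 5.26, 5.13 and 5.14 in healthy pools. Ppp1r15a (GADD34), the feedback subunit described above, read 4.05, 4.15 and 4.10 in treated pools, against 4.15, 5.15 and 4.52 in T2D control pools and 4.09, 4.15 and 3.93 in healthy pools. In both genes pool 4 had exactly the value of the highest treated pool, and pool 5 was the highest of all.

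Gdf15, a hormone that lowers food intake through its receptor in the hindbrain, read 4.60, 4.50 and 4.24 in treated pools, against 5.50, 6.66 and 5.72 in T2D control pools and 4.90, 4.88 and 4.81 in healthy pools. No groups overlapped: the treated pools were lowest, the healthy pools intermediate and the T2D control pools highest. Pool 4 was 0.90 above the highest treated pool. Treated pools lay entirely below healthy pools in 33.9% of all clusters, and Gdf15 was dim in both groups. Fgf21, a liver hormone that acts on fat and brain and is also induced by fasting through PPARα, read 5.08, 4.98 and 5.08 in treated pools, against 5.39, 5.66 and 5.45 in T2D control pools and 4.74, 5.08 and 4.86 in healthy pools. All 3 T2D control pools were above all others for Fgf21, in a narrow range, and the highest treated and the highest healthy pool had the same value.

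The spread between pools was uneven. The SD over the 3 pools was largest in the T2D control group for 7 of the 10 genes, all but Atf5, Trib3 and Fgf21, whereas this group had the largest SD in 15.9% of all clusters. The median SD of the 10 genes was 0.10 in treated pools, 0.40 in T2D control pools and 0.14 in healthy pools, against medians over all clusters of 0.071, 0.069 and 0.15 in the same order of groups. Over all clusters the T2D control group was not the widest one.

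Set against the mean of pools 5 and 6, pool 4 was lower in all 10 genes, as in 44.2% of all clusters, with a median difference of -0.57 over the 10 genes and of 0 over all clusters. The middle 95% of all clusters ran from -0.29 to 0.33. Chac1 in pool 4 was lower by 2.50 log2, a 5.66-fold difference that 0.00726% of all clusters equalled or passed. Ddit3 in pool 4 was lower by 1.14 log2, a 2.20-fold difference that 0.0886% of clusters equalled or passed. In contrast, the differences of Atf5 (-0.04) and Fgf21 (-0.16) were within the range of most clusters, and the remaining 6 genes lay between -0.69 for Gdf15 and -0.30 for Atf4. These values compare 1 pool with a pair and have no test. Pool 4 was set apart with the values of these genes known, so the shares of all clusters are a description only. Pool 4 also differed from pools 5 and 6 in marker levels. The log2 of the summed signal was 12.56 in pool 4 for 15 macrophage markers (12.36 and 12.29 in pools 5 and 6). It was 10.75 for 9 stellate cell markers (10.60 and 10.56). Within both lists genes went either way. Among macrophage markers Cd68 was higher in pool 4 (9.33, against 9.03 and 9.03) and C1qb lower (8.69, against 9.04 and 8.99). Among stellate cell markers Sparc was higher (9.67, against 9.43 and 9.43) and Dcn lower (7.09, against 7.33 and 7.56). For 11 hepatocyte markers the log2 of the summed signal was 14.72 (14.91 and 14.89), and these markers did not move together either. Tat was lower in pool 4 (10.71, against 11.86 and 11.80), as were Cps1 (11.38, against 11.75 and 11.78) and Ass1 (10.25, against 10.85 and 10.89). Alb read 12.67, 12.67 and 12.68 in pools 4, 5 and 6. The part of cell composition in the pool difference was not tested.

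**Figure D2:**
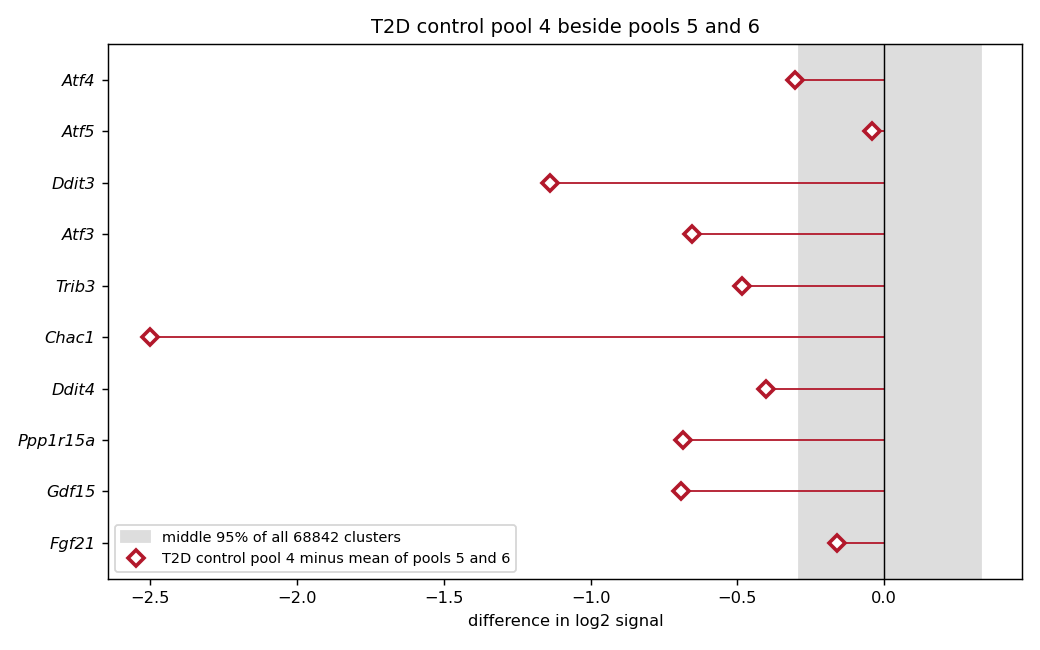
Difference in log2 signal between T2D control pool 4 and the mean of T2D control pools 5 and 6 (horizontal axis) for the 10 genes (rows), with the middle 95% of all 68842 clusters shaded. All 10 genes lie left of 0, from -0.04 for Atf5 to -2.50 for Chac1.

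Pools 5 and 6 differed from each other as well, and along other genes. Pool 5 exceeded pool 6 by 1.30 log2 for Atf3, by 0.94 for Gdf15, by 0.63 for Ppp1r15a and by 0.37 for Ddit4, while the middle 95% of all clusters ran from -0.33 to 0.294. For Ddit3 and Chac1 pool 6 was slightly the higher one, with differences of -0.32 and -0.18. For Atf4 the difference was -0.04. Atf3, Gdf15, Ppp1r15a and Ddit4 were thus highest in pool 5, and Ddit3, Chac1 and Atf4 in pool 6.

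The comparison of treated with T2D control livers sets diabetic livers that received the lupin compounds beside those that did not. In the paper's serum values the treated group already differed before treatment, with higher mean glucose, triglycerides and cholesterol and lower ALT. The liver was read only after treatment, so earlier differences and the treatment cannot be told apart. The paper's text and table present Chac1 as upregulated after treatment, with a larger fold change than found here, whereas the deposited values are lower in treated livers. Its figure names the comparison as T2D control against treated, so its signs are opposite to those given here. Averaged over 3 pools, all 10 genes were lower in treated than in T2D control livers (52.8% of all clusters were lower). The median difference was -0.60 over the 10 genes, against -0.0047 over all clusters. The largest differences were those of Chac1 (-1.72, SE 0.59, 3.30-fold lower), Gdf15 (-1.51, SE 0.26, 2.86-fold lower) and Ddit3 (-1.03, SE 0.29, 2.04-fold lower), followed by Atf3 at -0.91 (SE 0.32) and Trib3 at -0.70 (SE 0.23). Ppp1r15a differed by -0.51, Fgf21 by -0.45, Ddit4 by -0.37, Atf4 by -0.24 and Atf5 by -0.12. Some of these were smaller without T2D control pool 5, where Atf3 differed by -0.48, Ppp1r15a by -0.23 and Ddit4 by -0.21.

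None of the 10 genes passed an adjusted p under 0.05 in limma's test with Benjamini-Hochberg adjustment over all clusters, under which 0.0639% of clusters were lower. The adjusted p was 0.132 for Gdf15, 0.285 for Fgf21, 0.501 for Ddit3 and 0.742 for Chac1. At an unadjusted p under 0.05, 9 genes were lower (all but Atf5), against 3.21% of clusters. The study's threshold, an unadjusted p under 0.05 with a difference of over 2-fold, was passed by Chac1, Gdf15 and Ddit3, against 0.200% of clusters. In 6 genes (Atf5, Ddit3, Atf3, Trib3, Gdf15 and Fgf21) the treated pools lay entirely below the T2D control pools, against 8.99% of clusters.

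Without T2D control pool 4, Chac1 and Ddit3 fell in treated livers, against 0.196% of clusters lower. Chac1 differed by -2.56 (SE 0.17, 5.88-fold lower, limma adjusted p = 0.00644) and Ddit3 by -1.40 (SE 0.14, 2.65-fold lower, limma adjusted p = 0.0231). Gdf15 differed by -1.74 (SE 0.25, limma adjusted p = 0.0580), close to the threshold. The study's threshold was then passed by 4 genes, Atf3 in addition, against 0.314% of clusters, and the median over the 10 genes was -0.80. Pool 4 was set apart with its values known and leaving it out narrows the spread, so these p-values are those of an alternative. Without T2D control pool 5 instead, no gene passed the adjusted threshold and 1 passed the study's threshold.

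**Figure D3:**
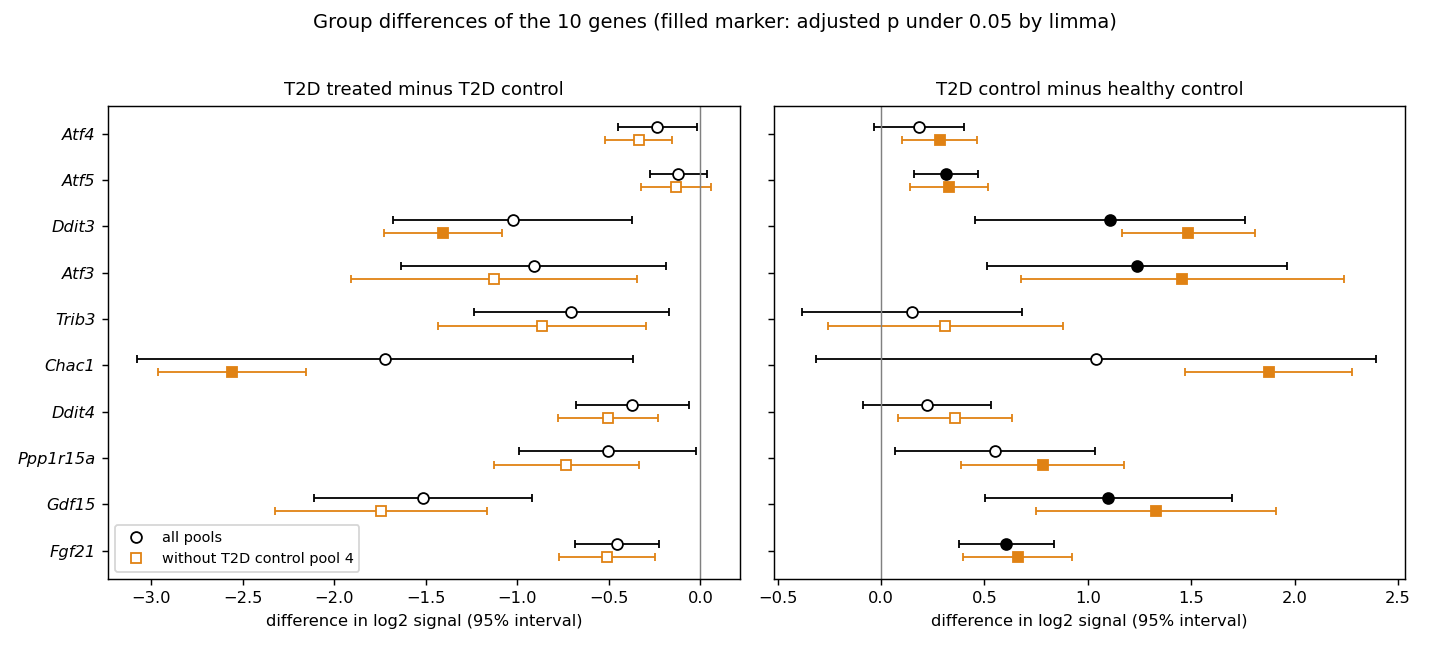
Differences in log2 signal (horizontal axes, with 95% intervals from limma) of the 10 genes for T2D treated minus T2D control (left) and T2D control minus healthy control (right), with all pools (circles) and without T2D control pool 4 (squares). Filled markers passed an adjusted p under 0.05: on the left Ddit3 and Chac1 without pool 4, on the right 5 genes with all pools and 8 without pool 4.

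The comparison of T2D control with healthy livers sets diabetic livers beside healthy ones that were also lysed differently. A rise here can therefore not be assigned to diabetes rather than to lysis. All 10 means were higher in T2D control livers (31.1% of all clusters were higher), with a median difference of 0.58, against -0.118 over all clusters. Of the 10 genes 5 rose, against 12.4% of clusters that were higher: Atf3 by 1.24 (SE 0.32, limma adjusted p = 0.0182), Ddit3 by 1.11 (SE 0.29, limma adjusted p = 0.0187), Gdf15 by 1.10 (SE 0.26, limma adjusted p = 0.0135), Fgf21 by 0.61 (SE 0.10, limma adjusted p = 0.00300) and Atf5 by 0.31 (SE 0.07, limma adjusted p = 0.00920). The same 5 genes were those in which the T2D control pools lay entirely above the healthy pools, against 15.0% of clusters. The rise of Fgf21 was 1.52-fold with a narrow error, and those of Atf3, Ddit3 and Gdf15 were over 2-fold and passed the study's threshold, against 3.35% of clusters. Chac1 differed by 1.04 (SE 0.59), with a limma adjusted p of 0.192. Without T2D control pool 5 the rise of Atf3 was 0.80, and Ddit3 missed the threshold without pool 5 (1.00, limma adjusted p = 0.0688) and without pool 6 (0.84, limma adjusted p = 0.0544).

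Without T2D control pool 4, 8 genes rose over healthy livers, against 9.68% of clusters, and Trib3 (0.31) and Ddit4 (0.36) did not pass. Here too pool 4 was left out with its values known, so the p-values are those of an alternative. Chac1 then rose by 1.87 (SE 0.17, 3.66-fold, limma adjusted p = 7.94e-04) and Ddit3 by 1.49 (SE 0.14, 2.80-fold, limma adjusted p = 8.03e-04). All clusters together lay lower in T2D control than in healthy arrays (median -0.118). With the medians of the arrays set equal, 7 genes rose with all pools, Atf4 and Ppp1r15a in addition, and 57.5% of all calls in this comparison were higher, against 35.5% with the deposited values and 45.6% after quantile normalization. The rise of Atf5 missed the threshold after quantile normalization (0.15, limma adjusted p = 0.175). Beside these rises, many markers of other cells were higher in the T2D control livers. Of 15 macrophage markers 10 rose, as did 8 of 9 stellate cell markers and all 8 sinusoidal endothelial markers, against 12.4% of all clusters. The means of 3 macrophage markers were lower. Of 5 cholangiocyte markers 0 rose and 1 fell, against 22.6% of all clusters lower. The log2 of the summed signal of the macrophage markers was 12.29 to 12.56 in T2D control pools and 11.09 to 11.31 in healthy pools. The part of other cell types in the rise of the stress genes was not tested. In treated against T2D control livers none of these markers passed the adjusted threshold in limma's test. At an unadjusted p under 0.05, 1 macrophage, 2 stellate cell and 0 endothelial markers were lower, against 3.21% of all clusters. The macrophage sum was 12.29 to 12.50 in treated pools. Of 10 neutrophil and monocyte markers 5 were higher in treated livers at an unadjusted p under 0.05, against 1.92% of all clusters, and 0 at the adjusted one. Their sums were 9.10 to 10.05 in treated pools and 8.83 to 8.98 in T2D control pools.

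Treated livers were also set against healthy ones. The median difference of the 10 genes was -0.0029, against -0.132 over all clusters, and the range ran from -0.68 for Chac1 to 0.33 for Atf3. No gene passed the adjusted threshold in limma's test, against 23.1% of clusters lower and 11.1% higher. With equal array medians 57.2% of the calls in this comparison were higher, against 32.5% with the deposited values and 46.4% after quantile normalization. At an unadjusted p under 0.05, Trib3 was lower (-0.55, SE 0.23), against 33.9% of clusters, and Atf5 was higher (0.19, SE 0.07), against 14.0% of clusters. The 95% interval of the difference was -0.57 to 0.74 for Ddit3, -0.40 to 1.05 for Atf3, -1.01 to 0.18 for Gdf15 and -0.08 to 0.38 for Fgf21, so differences of these sizes in either direction are compatible with the data. The 3 comparisons share their arrays in pairs, so low values in treated against T2D control and high values in T2D control against healthy livers are not separate observations.

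Upstream of ATF4, 14 genes for the eIF2 kinases, eIF2 and its exchange factor and phosphatases were measured. None passed the adjusted threshold in treated against T2D control livers, and 1 was lower at an unadjusted p under 0.05, against 3.21% of all clusters. That gene was Eif2ak3, which encodes PERK, the eIF2 kinase of the endoplasmic reticulum. Eif2ak3 read 6.25, 6.30 and 6.27 in treated pools, against 6.49, 6.88 and 6.80 in T2D control pools and 5.59, 5.30 and 5.42 in healthy pools, so that the groups did not overlap. Treated livers differed from T2D control livers by -0.45 (SE 0.11, limma adjusted p = 0.368), and Eif2ak3 rose by 1.29 in T2D control over healthy livers (SE 0.11, limma adjusted p = 1.73e-04). The amino acid sensor Eif2ak4 (GCN2) rose by 0.31 in T2D control over healthy livers (limma adjusted p = 0.0354), and Ppp1r15b, the constitutive partner of the eIF2 phosphatase, fell by 0.40 (limma adjusted p = 0.0171). The rise of Eif2ak4 missed the threshold without any 1 of the treated or T2D control pools, and the fall of Ppp1r15b without T2D control pool 5 or pool 6.

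Of 17 genes of other leucine zipper factors, with which the ATF and C/EBP proteins pair, 1 fell in treated livers with all pools. Over all clusters 0.0639% were lower at the adjusted threshold. Maff, a small MAF protein, read 4.22, 4.09 and 4.07 in treated pools, against 4.75, 4.88 and 4.70 in T2D control pools and 4.32, 4.32 and 4.29 in healthy pools, a difference of -0.65 between treated and T2D control livers (SE 0.07, limma adjusted p = 0.0249). Maff was dim, and its values lay close together in the T2D control pools. The difference ranged from -0.70 to -0.60 with 1 pool left out, but the call was kept only without T2D control pool 4 or healthy pool 9 and lost without each of the other 7 pools (limma adjusted p up to 0.165). Jun, the AP-1 factor, differed by -1.43 (SE 0.36, limma adjusted p = 0.399) and read 7.28, 8.60 and 7.52 in T2D control pools, with pool 5 the highest as in Atf3. Cebpa, the main C/EBP factor of hepatocytes, was higher in treated livers by 0.48 (limma adjusted p = 0.531).

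The wider ATF4 program was followed in 37 measured target genes of amino acid synthesis and transport, aminoacyl-tRNA synthetases and stress sensors. With all pools none passed the adjusted threshold in treated against T2D control livers, 7 were lower and 0 higher at an unadjusted p under 0.05 (against 3.21% of all clusters lower and 1.92% higher), and the median difference was -0.11. Asns, asparagine synthetase, differed by -0.38 (SE 0.06, limma adjusted p = 0.126) and read between 5.18 and 5.27 in treated pools, between 5.53 and 5.65 in T2D control pools and between 4.45 and 4.60 in healthy pools. Psat1, an enzyme of serine synthesis, differed by -0.74 and Slc3a2, the heavy chain of amino acid exchangers, by -0.37. Asns showed no gap between T2D control pools, with 5.61 in pool 4 against 5.65 in pool 5 and 5.53 in pool 6.

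Without pool 4, 4 of the 37 fell in treated livers, against 0.196% of all clusters. They were the amino acid transporter genes Slc38a2 (-1.76, limma adjusted p = 0.00504), Slc1a4 (-1.30, limma adjusted p = 0.0128) and Slc3a2 (-0.48, limma adjusted p = 0.0375), and Psat1 (-0.94, limma adjusted p = 0.0403). With all pools their limma adjusted p was 0.596, 0.781, 0.338 and 0.296 in the same order. Pool 4 was set apart with values known, so the p-values without it are those of an alternative and are no separate support. Slc38a2, the sodium-coupled neutral amino acid transporter SNAT2, read 8.29, 8.12 and 8.33 in treated pools, against 8.43, 9.98 and 10.02 in T2D control pools and 7.60, 7.42 and 7.74 in healthy pools. Slc1a4 read 4.70, 4.68 and 4.70 in treated pools, against 4.70, 5.88 and 6.11 in T2D control pools and 4.43, 4.31 and 4.11 in healthy pools. Both genes repeat the order of Chac1 among the T2D control pools, with pool 4 close to the treated pools, and are named here after their values were seen. In T2D control against healthy livers with all pools, 13 of the 37 rose and 2 fell, against 12.4% of all clusters higher and 22.6% lower, among the rises Asns by 1.09 (limma adjusted p = 3.84e-05), Slc38a2 by 1.89 (limma adjusted p = 0.00621) and Slc6a9, a glycine transporter gene, by 0.81 (limma adjusted p = 4.89e-04).

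Chaperone genes form another branch of the stress response. With all pools none of 22 genes of chaperones and of the ATF6 and XBP1 arms passed either threshold in treated against T2D control livers, in limma's test at an adjusted or an unadjusted p under 0.05, and their median difference was 0.04. Without pool 4 the median was -0.03, with 1 gene lower and 1 higher at an unadjusted p under 0.05 and 0 at the adjusted one. The lower gene was Edem1, which takes part in the disposal of misfolded glycoproteins (-0.77, SE 0.21, limma adjusted p = 0.354), with 8.77 in pool 4, against 9.89 and 9.57 in pools 5 and 6. Hspa5, which encodes the chaperone BiP, read 9.65, 10.08 and 9.84 in treated pools, against 9.80, 9.98 and 10.02 in T2D control pools and 9.25, 9.37 and 9.30 in healthy pools. Treated and T2D control pools overlapped. In T2D control against healthy livers 5 of the 22 rose and 1 fell, against 12.4% of all clusters higher and 22.6% lower, with Hspa5 up by 0.63 (limma adjusted p = 0.00383), Atf6 up by 1.11 (limma adjusted p = 6.86e-04) while Sdf2l1 fell by 0.89 (limma adjusted p = 0.00423).

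Downstream of CHOP, 9 genes of cell death and related targets were measured. None passed the adjusted threshold in treated against T2D control livers, and 3 were lower at an unadjusted p under 0.05, against 3.21% of all clusters. They were Dusp1 (-1.42, SE 0.37), Gadd45a (-0.54, SE 0.19) and Bcl2l11 (-0.41, SE 0.13), the last of which encodes the death protein BIM. Without T2D control pool 5 Dusp1 differed by -0.98 and Gadd45a by -0.33. Neither of these 2 passed the adjusted threshold in T2D control against healthy livers (limma adjusted p = 0.162 and 0.364). Bcl2l11 read between 5.19 and 5.36 in treated pools, between 5.47 and 5.95 in T2D control pools and between 4.81 and 5.15 in healthy pools. Of the same 9 genes 4 rose and 1 fell in T2D control over healthy livers, against 12.4% of all clusters higher and 22.6% lower. Bcl2l11 rose by 0.75 (limma adjusted p = 0.00379), and the gene that fell was Bbc3, another death gene, by 0.85 (limma adjusted p = 0.00523). Among the 4 rises was also Bcl2, which acts against cell death (0.45, limma adjusted p = 0.0158). The rise of Bcl2 missed the threshold without T2D control pool 5.

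The receptors of the 2 hormones were measured in 7 genes, of which 0 passed either threshold in treated against T2D control livers. Klb, the co-receptor of FGF21, differed by 0.03 (SE 0.07), and Fgfr4, the main fibroblast growth factor receptor of hepatocytes, by 0.11 (SE 0.06). Gfral, the GDF15 receptor of the hindbrain, read between 1.75 and 2.14 over all 9 pools, under the level of the background probe sets. Fgfr2 rose by 0.99 in T2D control over healthy livers (limma adjusted p = 4.35e-04) and differed by 0.12 between treated and T2D control livers.

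Among 15 other genes for secreted liver proteins none passed the adjusted threshold in treated against T2D control livers. At an unadjusted p under 0.05, 1 was higher and 3 were lower, against 1.92% of all clusters higher and 3.21% lower. Tsku differed by -1.28 (SE 0.31), Igfbp1, a binding protein of insulin-like growth factors, by -1.09 (SE 0.29), Angptl8 by -0.63 (SE 0.22) and Angptl4, an inhibitor of lipoprotein lipase, by 0.89 (SE 0.21). Tsku read 7.19, 6.98 and 6.95 in treated pools, against 7.51, 8.75 and 8.70 in T2D control pools and 7.08, 6.83 and 7.42 in healthy pools, again with pool 4 nearest to the treated pools. Without pool 4, an alternative chosen with values known, Tsku fell by 1.69 (limma adjusted p = 0.0227, against 0.350 with all pools). Angptl4 fell by 2.32 in T2D control against healthy livers (limma adjusted p = 2.06e-04).

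Fgf21 is also a target of PPARα, the fatty acid sensor of liver, so 11 genes of PPARα and its targets were read beside it. None passed the adjusted threshold in treated against T2D control livers with all pools. Only Pdk4 was lower at an unadjusted p under 0.05 (-1.21, SE 0.25), against 3.21% of all clusters. Pdk4, a brake on pyruvate dehydrogenase, read 7.83, 8.78 and 8.48 in T2D control pools. Without pool 4, an alternative chosen with values known, Pdk4 fell by 1.48 (limma adjusted p = 0.0429, against 0.216 with all pools). Cpt1a, the gate of mitochondrial fatty acid uptake, ran opposite, with 9.62 in pool 4 against 8.88 and 8.64 in pools 5 and 6. The median of the 11 genes was 0.03 in treated against T2D control livers. In T2D control against healthy livers, where Fgf21 rose, 4 of the 11 rose and 3 fell, against 12.4% of all clusters higher and 22.6% lower. Ppara rose by 1.35 (limma adjusted p = 2.02e-04), Plin2 by 1.21 (8.97e-04) and Cyp4a1 by 1.08 (0.00667), while Fabp1 fell by 0.72 (8.61e-04). Their part in the rise of Fgf21 was not tested.

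The genes most alike Gdf15, Ddit3 and Fgf21 were sought among 8564 genes by the root mean square difference of their profiles over the 9 pools, each profile centred on its own mean. The measure is a description, since all genes share the same 9 arrays. Gdf15 was most like Tnfrsf12a (0.22 log2), Gadd45b (0.26) and Jun (0.30). All 3 shared the order of the T2D control pools, with 7.47 for Tnfrsf12a in pool 5, against 6.37 in pool 4 and 6.76 in pool 6. Ddit3 was most like Gem (0.16), Ces2 (0.19) and Tat (0.24), in which pools 5 and 6 stood together, with 11.86 and 11.80 for Tat, against 10.71 in pool 4. Fgf21, whose own profile varied least of the 3 (SD over 9 pools 0.30, against 0.75 for Gdf15 and 0.64 for Ddit3), was most like Rerg (0.10), Sqstm1 (0.10) and Slc3a2 (0.11).

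**Figure D4:**
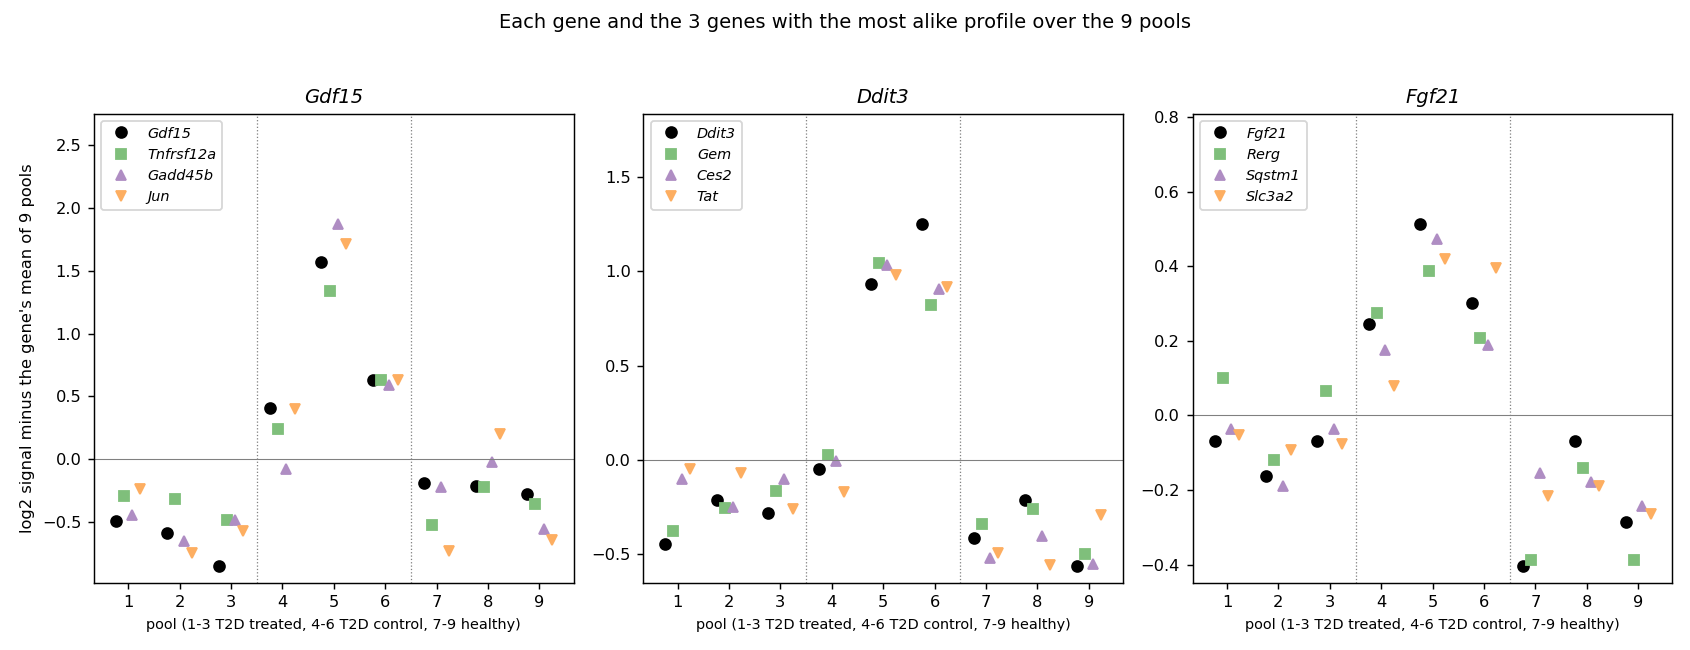
Log2 signal minus the gene's mean over 9 pools (vertical axes, a range of its own for each panel) in pools 1 to 3 (T2D treated), 4 to 6 (T2D control) and 7 to 9 (healthy control) for Gdf15, Ddit3 and Fgf21 and the 3 genes most alike each. In the Gdf15 panel pool 5 stands highest, in the Ddit3 panel pools 5 and 6 both stand above pool 4, and in the Fgf21 panel pools 4 and 6 lie close together for Fgf21 itself.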

How the data were processed

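Liver RNA of 9 pools (3 T2D treated, 3 T2D control, 3 healthy control) was read on Clariom D Rat arrays, and the authors scanned them and summarised the probes with Transcriptome Analysis Console 4.0.2 by RMA. The deposited values are log2 signals per transcript cluster, already background-corrected and normalized, and were used as they stand. The genome build behind the annotation is not given in the sources used here. Of the table, 1738 control probe sets were left out, which leaves 68842 clusters, and 0 columns were unused. Array precision is limited by 3 pools a group. Differences were fitted with limma 3.58.1 in R 4.3.3 (lmFit, eBayes, all 9 arrays, 6 residual degrees of freedom, 2-sided), with p-values adjusted over all clusters. For Gdf15, Ddit3 and Fgf21 the 3 other genes with the most alike profile are named. A gene on several clusters was read from the brightest. Members and gene lists were chosen with earlier results of these data known. Of each list, the text names at most the 4 genes with the smallest p in treated against T2D control livers (cell markers: in T2D control against healthy livers). Eif2ak4, Slc38a2, Slc1a4, Slc6a9, Hspa5, Atf6, Sdf2l1, Bbc3, Bcl2, Ppara, Plin2, Cyp4a1, Alb, Cps1, Ass1 and C1qb were added after their values were seen. Scripts were tested on simulated data. As alternatives, the arrays were centred on their medians or quantile normalized, dim clusters (mean under 5) or clusters without exactly 1 symbol were dropped, clusters of a gene were averaged, and limma was run with trended robust variances, with array weights or on only the groups compared. Each pool was also left out in turn. Promoter sequences are from RefSeq (GRCr8). Plots were made in python 3.11.15 (matplotlib 3.10.9).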

Additional observations from a re-analysis of the deposited data

How the results depend on the processing

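No paired analysis was possible because the pools of the 3 groups carry different numbers. In treated against T2D control livers, where 0 of the 10 genes passed the adjusted threshold, 2 passed with array weights (Gdf15, adjusted p 0.0385, and Fgf21, adjusted p 0.0350, both by limma) and 0 to 2 when 1 pool was left out, with Chac1 and Ddit3 called without T2D control pool 4 only. No alternative turned the direction of any of the 10 genes in this comparison. The count at the study's threshold, 3 with all pools, ranged from 1 to 4 when 1 pool was left out, with 1 without T2D control pool 5. Over all clusters 46 were called, against 0 to 170 with 1 pool left out, 606 with array weights, 30 with median centring, 6 with only the 2 groups compared, 3 with only clusters of 1 symbol and 1 with a mean of at least 5. In T2D control against healthy livers 5 genes passed, 3 did so with only the 2 groups compared (Atf5, Gdf15 and Fgf21) and 4 to 8 with 1 pool left out, 8 of them without T2D control pool 4. The count at the study's threshold, 3, ranged from 0 to 4, with 0 without T2D control pool 5. Fgf21 and Gdf15 passed under all 17 alternatives, whereas Ddit3 missed under 3 (adjusted p up to 0.0688, by limma) and Atf3 under 2. Trib3 ranged from -0.0915 (without healthy pool 9) to 0.326 with 1 pool left out. Over all clusters 24083 were called, against 15654 without T2D control pool 5, 10563 with only clusters of 1 symbol and 9484 with a mean of at least 5, the last 2 of which test fewer clusters. In treated against healthy livers 0 passed, but 1 did with median centring, with clusters of a mean of at least 5 and with clusters of 1 symbol, 2 with only the 2 groups compared, and 0 to 1 with 1 pool left out. Atf4 turned to 0.0705 with median centring. With 1 pool left out Ddit3 ranged from -0.0011 to 0.173 and Ppp1r15a from -0.0165 to 0.0958, both lowest without healthy pool 9. Over all clusters 23602 were called there, against 15227 and 14782 without T2D treated pools 2 and 3, 10644 with only clusters of 1 symbol and 8677 with a mean of at least 5. The cause of these shifts was not tested. Chac1 and Ppp1r15a are under a mean of 5 and drop out of that alternative.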
